A study of Homo sapiens with 6 samples.

Results

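Small nucleolar RNAs (snoRNAs) were examined as the rows of a gene count table whose gene type is snoRNA and that were chosen by depth: at least 20 reads summed over 6 libraries. The U3 row SNORD3A was left out by the same rule. Of 431 snoRNA rows among 54261 rows in the table, 280 had at least 1 read and 114 met the rule. By name they were 73 box C/D snoRNAs (SNORD), 41 box H/ACA snoRNAs (SNORA) and 0 Cajal body RNAs (SCARNA). All 28 SCARNA rows carried the gene type ncRNA, so that class had no member. The depth rule does not look at the groups, but the class and the cutoff were selected on these same libraries with earlier results known, so counts over the list are given as a description. A row can still meet the rule mainly through the group where it is high, as the U3 members did.

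The libraries came from A549, an established human lung adenocarcinoma line. In 3 libraries the cells carried si-SNHG17, an siRNA knockdown of the long noncoding RNA SNHG17, and in 3 they carried the control si-NC. Total RNA was read single-end on an Ion Proton sequencer. The labels give 1 line and do not give the number of siRNAs, the time after transfection, whether repeats were separate cultures, or a size selection or ribosomal RNA removal, and p-values therefore cover only the variation among these libraries, which may be technical. As the check of the knockdown, SNHG17 had 9.16 ± 1.86 CPM (counts per 1000000 counts of the scaled library, mean ± SD, n = 3) with si-SNHG17 and 42.1 ± 8.16 CPM with si-NC, a log2 fold change of -2.21. In bulk libraries such as these, fewer cells of a type and less RNA per cell cannot be told apart.

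Box C/D snoRNAs carry short sequence boxes C and D near their ends, bind fibrillarin, NOP56, NOP58 and SNU13, and guide ribose methylation of ribosomal and spliceosomal RNA. Box H/ACA snoRNAs fold into hairpins joined by box H and closed by box ACA, bind dyskerin (DKC1), NHP2, NOP10 and GAR1, and guide the conversion of uridine to pseudouridine. In human cells most are cut out of introns of host genes, many of which encode ribosomal proteins or are noncoding RNAs of the SNHG family, and a few such as U3 have promoters of their own and act in cutting the ribosomal RNA precursor.

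The rows on which the results turn are shown here so that the box elements and the lengths can be compared. Sequences are those of GENCODE release 29 (GRCh38), and capitals mark box C (NTGATGA, searched in the first 40 bases) and box D (CTGA, in the last 15 bases) of SNORD rows, or box H (ANANNA, between 40% and 60% of the length) and ACA (3 bases before the 3′ end) of SNORA rows. Only the strand of the snoRNA was searched, or that of the isoform read where the snoRNA had no entry. SNORD32A (chr19:49489965-49490048, plus strand), SNORD33 (chr19:49490615-49490699) and SNORD34 (chr19:49490904-49490974) lie in introns of RPL13A that minor retained-intron isoforms keep. SNORD139 (chr22:39316842-39316896) and SNORA103 (chr1:173866205-173866290) have no entry of that name in the release, and so no strand of their own here. Their bases were read on the minus strand from isoforms of RPL3 and GAS5 that contain them. SNORD86 (chr20:2656097-2656182, plus strand) lies in NOP56 and SNORD25 (chr11:62855564-62855632, minus strand) in SNHG1.
SNORD32A: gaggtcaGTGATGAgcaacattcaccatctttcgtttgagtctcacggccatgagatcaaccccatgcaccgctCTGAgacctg
SNORD33: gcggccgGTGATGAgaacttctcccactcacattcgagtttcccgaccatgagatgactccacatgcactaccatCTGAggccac
SNORD34: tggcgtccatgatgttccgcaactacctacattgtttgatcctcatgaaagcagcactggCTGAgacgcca
SNORD139: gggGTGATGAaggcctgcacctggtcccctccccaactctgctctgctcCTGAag
SNORD86: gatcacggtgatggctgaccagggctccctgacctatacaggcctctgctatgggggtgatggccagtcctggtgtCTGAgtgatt
SNORD25: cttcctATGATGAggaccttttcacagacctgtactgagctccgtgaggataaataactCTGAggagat
SNORA103: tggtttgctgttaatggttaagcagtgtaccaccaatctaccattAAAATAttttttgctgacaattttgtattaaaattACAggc
SNORA50C: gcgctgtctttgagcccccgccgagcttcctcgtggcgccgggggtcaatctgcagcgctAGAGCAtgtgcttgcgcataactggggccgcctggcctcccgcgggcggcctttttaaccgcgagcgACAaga
SNORA50C (chr17:64146339-64146471, plus strand) lies in an exon of SNHG25. SNORD34 and SNORD86 hold no NTGATGA in the window searched, which says only that these letters are not there. Both boxes were found in 34 of 58 SNORD members with a searchable entry (58.6%) and in 188 of 275 SNORD entries of the release (68.4%). Boxes H and ACA were both found in 27 of 35 SNORA members (77.1%) and in 99 of 142 SNORA entries (69.7%). By RefSeq positions (GRCh38.p14) the SNORD members were 48 to 237 bases long with a median of 80.0, and the SNORA members 86 to 207 bases with a median of 134.0.

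The table held few reads for most members. The median member had 50 reads over 6 libraries, against 1060 for the median gene tested, and 52 of the 114 members (33 SNORD, 19 SNORA) passed the filter on low counts. That filter asked for about 1.01 CPM in 3 libraries. Of the 52, 21 reached it in fewer than 3 libraries of one group or of both. Some fell short in both, such as SNORA18 with 2 and 2 libraries. Where the other group reached it in all 3, the place among those tested rested mainly on that group. Among the calls described here, 5 belong to these 21 (SNORD3D, SNORD34, SNORD10, SNORD25 and SNORA50C). The members just inside the depth rule were SNORD19 and SNORD67 with 20 reads each, and those just outside were SNORA5A and SNORD109A with 19 reads each.

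A single row held much of the signal. SNORD141A had 2473, 2691 and 2277 reads with si-SNHG17 and 2027, 2738 and 2375 with si-NC, 45.3% of all member reads, and the groups overlapped. Its log2 fold change was 0.02 (standard error 0.0959, adjusted p = 0.907), and that value fell below 0 in 4 of the fits that left out a library. The row lies in EEF1A1P5, a processed pseudogene of the translation elongation factor gene EEF1A1, and all 105 of its bases match the EEF1A1 messenger RNA. SNORD141B, in the pseudogene EEF1A1P13, has the same 105 bases and had 216, 210 and 219 reads with si-SNHG17 against 236, 256 and 114 with si-NC. The shared stretch is shown once because it decides what these counts can mean.
SNORD141A: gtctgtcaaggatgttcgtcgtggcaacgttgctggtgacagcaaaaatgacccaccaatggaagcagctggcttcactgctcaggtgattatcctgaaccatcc
How reads that fit several places were counted is not given in the sources used here, so reads of SNORD141A and SNORD141B cannot be told apart from those of EEF1A1 messenger RNA. EEF1A1 itself had 1972 ± 124 CPM (SD, n = 3) with si-SNHG17 and 1934 ± 259 CPM with si-NC.

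Where the other members lie bears on the counts in the same way. By GENCODE, 25 members lay in an exon of a protein-coding or long noncoding transcript and held 14.5% of member reads. Another 63 lay in an exon of a retained-intron or other minor isoform only (25% of reads), 20 in introns only (9.87%) and 4 outside other genes (1.54%). SNORA86 lies in an exon of the integrin gene ITGB1 and SNORA105B in an exon of HSPD1, the mitochondrial chaperonin. SNORA104, within the span of an intron of ADGRE3, had 376, 480 and 370 reads with si-SNHG17 and 326, 351 and 362 with si-NC. The ADGRE3 row had 0 reads in every library. SNORA86, SNORA105B and SNORA104 have no entry of that name in the release, so they were placed by position on either strand. The level of SNORA104 was higher in every si-SNHG17 library than in any si-NC library, with a log2 fold change of 0.18 that did not pass the test (adjusted p = 0.166).

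Of the 52 tested members, 9 were higher and 3 lower with si-SNHG17 at an adjusted p under 0.05, and 40 did not pass. That is fewer than the 39.1% of all 15614 tested genes that passed, 19.6% in the higher and 19.6% in the lower direction, but the members carried far fewer reads per row. The SNORD class gave 7 higher and 2 lower of 33, and the SNORA class 2 higher and 1 lower of 19. The median log2 fold change was 0.16 for all tested members, 0.14 for SNORD and 0.18 for SNORA, against 0.01 over all genes tested. The low-count filter was applied anew in each fit that left out a library, so the rows tested could differ as well. The medians moved in these fits. Without si-NC replicate 3 they were 0.38 for all tested members, 0.43 for SNORD and 0.38 for SNORA. The SNORD median was 0.24 without si-NC replicate 1, 0.28 without si-NC replicate 2 and 0.38 without si-SNHG17 replicate 2, and the SNORA median 0.0886 without si-NC replicate 1 and 0.10 without si-SNHG17 replicate 2. Without si-NC replicate 1 there were 1 SNORD and 0 SNORA rows lower. SNORD rows lower were also 1 without si-NC replicate 2, and without si-SNHG17 replicate 3 there were 4 SNORD rows higher and 0 SNORA rows lower. Of the 12 calls, 6 were kept in every alternative setting that could test them, and these were SNORD139, SNORD32A, SNORD3D, SNORD86, SNORA103 and SNORA57.

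**Figure D1:**
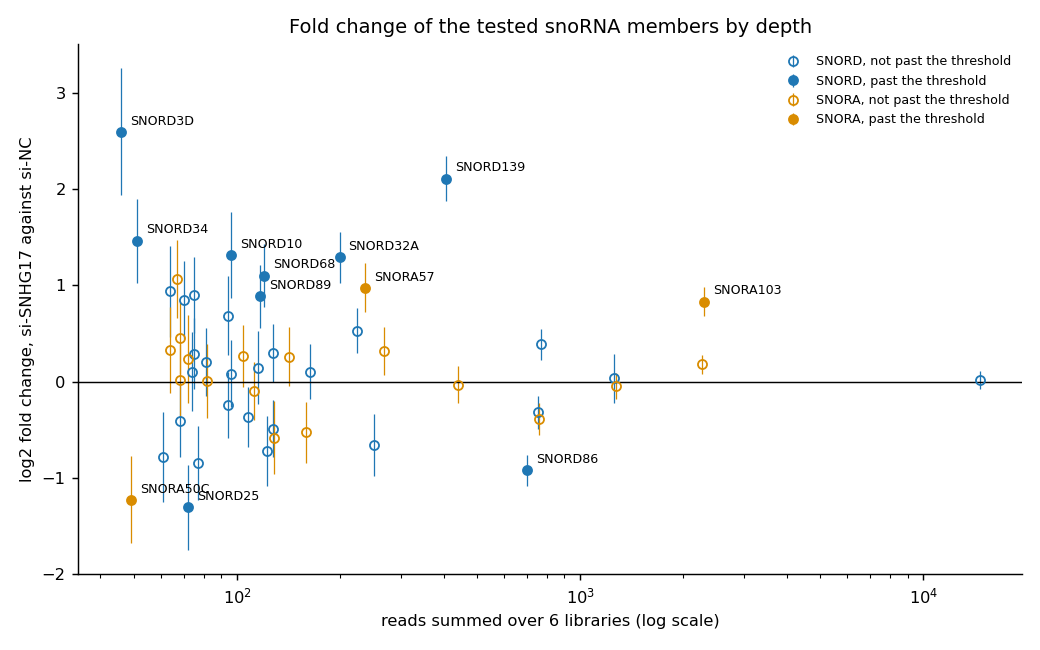
Log2 fold change of each of the 52 tested snoRNA members (si-SNHG17 against si-NC, bars are the standard error) against its reads summed over 6 libraries on a log scale. Filled points passed the adjusted p threshold of 0.05, blue is SNORD and orange SNORA. The most read row, SNORD141A, sits at 0.02, and the calls spread from SNORD25 at -1.31 to SNORD3D at 2.60.

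The plot of fold change by depth shows that calls came from rows of low and of middle depth, and that of the 5 most read rows, which held 67.3% of member reads, SNORA103 alone passed. The tested log2 fold changes ran from -1.31 to 2.60, and 34 of 52 were above 0. Across these 52 rows the Spearman correlation of fold change with snoRNA length was 0.063, given as a description of rows that share the same 6 libraries.

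Among box C/D rows, the largest call with good depth was SNORD139, which lies in RPL3, the gene of a large-subunit ribosomal protein. It had 83, 158 and 93 reads with si-SNHG17 and 20, 19 and 34 with si-NC, so every knockdown library lay above every control library. The level rose from 2.44 ± 0.671 to 10.6 ± 1.98 CPM (SD, n = 3), a log2 fold change of 2.11 (standard error 0.236, adjusted p = 9.54e-06). The host row RPL3 had a log2 fold change of -0.24 that did not pass the test (adjusted p = 0.3). That row held only 18.5 ± 4.76 CPM with si-SNHG17 and 21.9 ± 3.36 with si-NC, where RPL4 held 1233 and 1158 CPM. How reads were assigned to it is not given, so it may not stand for all RPL3 messenger RNA. The other members in RPL3, SNORD83A and SNORD83B, summed to 24, 23 and 24 reads against 13, 19 and 19, and their summed CPM overlapped between the groups. Taken singly, 2 of the 3 members in RPL3, SNORD139 among them, were higher in CPM in every si-SNHG17 library than in any si-NC library.

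The RPL13A snoRNAs guide methylation of ribosomal RNA and are known from work on lipid-induced cell death, and their host encodes another large-subunit protein. SNORD32A had 50, 54 and 39 reads with si-SNHG17 and 15, 15 and 26 with si-NC. It rose from 1.87 ± 0.499 to 4.66 ± 0.486 CPM, a log2 fold change of 1.30 (standard error 0.266, adjusted p = 0.00155), with no overlap. SNORD34 had 14, 14 and 10 reads against 3, 6 and 4, with no overlap, and rose by 1.47 (standard error 0.437, adjusted p = 0.0164). The call of SNORD34 was lost in DESeq2 and without si-NC replicate 1, si-NC replicate 3 or si-SNHG17 replicate 1, with adjusted p from 0.0144 to 0.0777 over its alternatives. SNORD33 was under the filter, with 6, 24 and 12 reads against 2, 5 and 5, and was higher in every knockdown library. SNORD35A, the other member in RPL13A, had 3, 12 and 6 reads against 9, 9 and 9, and its groups overlapped. Together the 4 rows had 7.85 ± 0.396 CPM with si-SNHG17 and 3.62 ± 0.436 with si-NC. The host RPL13A rose as well, by 1.03 on the log2 scale (adjusted p = 1.28e-05), from 25.7 ± 2.03 to 52.4 ± 7.18 CPM.

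**Figure D2:**
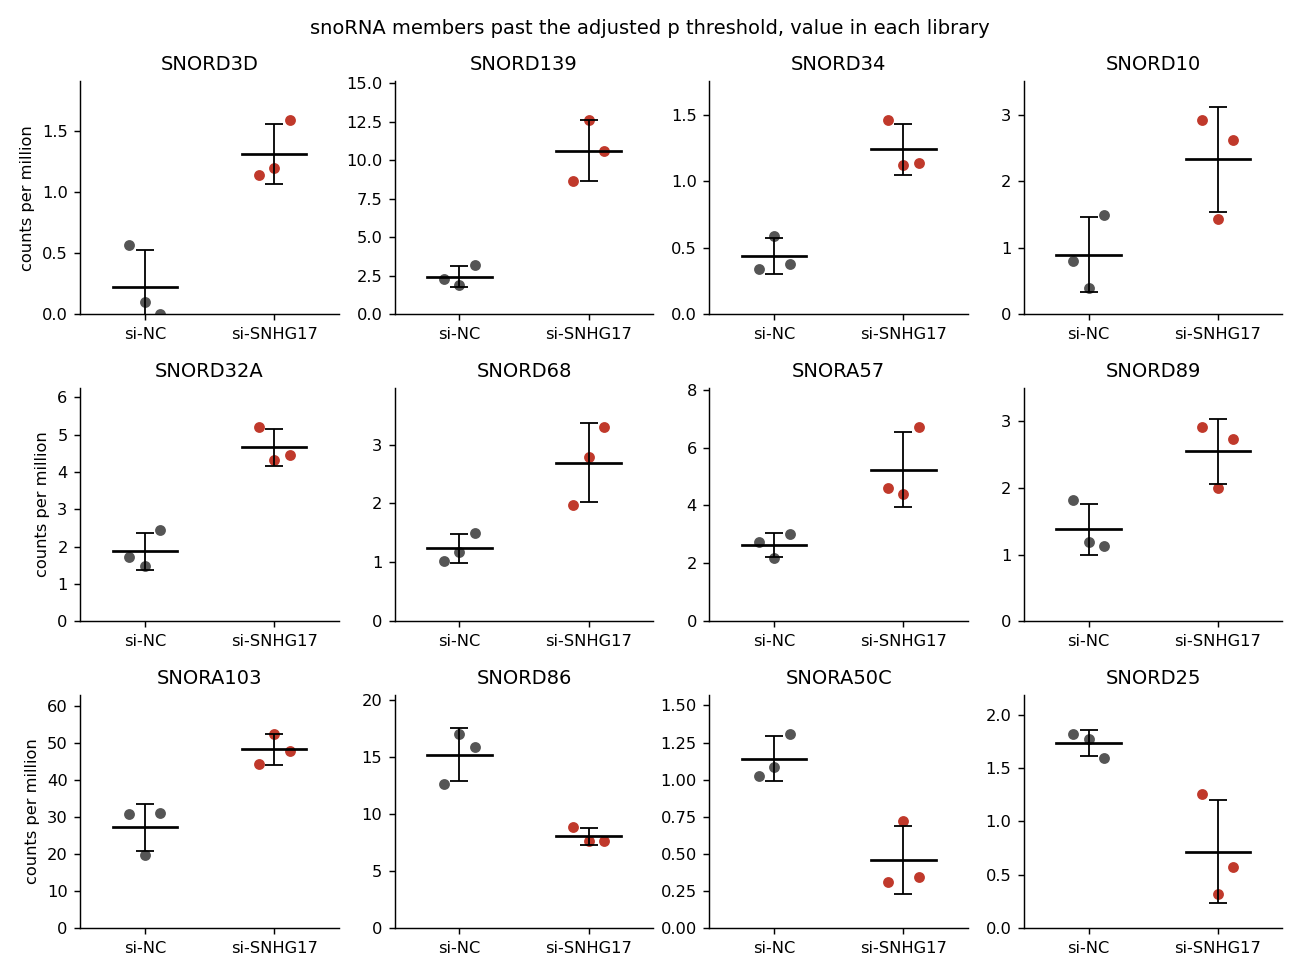
CPM in each library of the 12 snoRNA members past the threshold, ordered by fold change from SNORD3D to SNORD25. Points are the 3 libraries of each group, the wide line is the mean and the bars are 1 SD, cut at 0 for SNORD3D. SNORD10 is the 1 panel in which the groups overlap.

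Both lower box C/D calls lay in host genes that were not called lower. SNORD86 sits in NOP56, which encodes a core protein of the box C/D particle, and is known to take part in the splicing of that transcript. It had 85, 95 and 67 reads with si-SNHG17 and 111, 173 and 170 with si-NC. Its level fell from 15.2 ± 2.3 to 8.03 ± 0.723 CPM, a log2 fold change of -0.93 (standard error 0.162, adjusted p = 0.000469), with every knockdown library below every control library. NOP56 itself had 9.99 ± 1.06 CPM with si-SNHG17 and 8.25 ± 1.48 with si-NC, a log2 fold change of 0.28 that did not pass (adjusted p = 0.23). The neighbour SNORD110 in NOP56 had 11, 7 and 10 reads against 17, 17 and 15, again with no overlap, and a log2 fold change of -0.85 that did not pass (adjusted p = 0.0973). SNORD57, also in NOP56, was under the filter with 6, 1 and 5 reads against 4, 7 and 9, and its groups overlapped.

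SNORD25, a guide for ribosomal RNA in an exon of the noncoding RNA SNHG1, had 12, 4 and 5 reads with si-SNHG17 and 16, 18 and 17 with si-NC. The groups did not overlap, and its log2 fold change was -1.31 (standard error 0.444, adjusted p = 0.0309). SNHG1 rose by 0.42 (adjusted p = 0.0219), so host and snoRNA row moved in opposite directions. The 8 members in SNHG1 summed to 97, 81 and 66 reads against 108, 86 and 102, with overlap between the groups. SNORD25 lost its call in DESeq2 and without si-NC replicate 1, si-NC replicate 2, si-SNHG17 replicate 2 or si-SNHG17 replicate 3, with adjusted p from 0.00819 to 0.147 over all alternatives.

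The other box C/D calls outside U3, SNORD68, SNORD10 and SNORD89, rested on few reads. SNORD68, in the ribosomal protein gene RPL13, had 19, 35 and 29 reads against 9, 12 and 16 and rose by 1.10 (adjusted p = 0.0155), beside a rise of 0.50 in RPL13 (adjusted p = 0.00288). SNORD10, in the translation initiation factor gene EIF4A1, had 28, 18 and 23 reads against 7, 4 and 16 and rose by 1.32 (adjusted p = 0.0305). Its groups overlapped in CPM, and EIF4A1 had a log2 fold change of -0.04 (adjusted p = 0.722). SNORD89, in an intron of RNF149, had 28, 25 and 24 reads against 16, 12 and 12 and rose by 0.89 (adjusted p = 0.0443), with no overlap. Each of these 3 lost its call when at least one single library was left out: SNORD68 without si-NC replicate 1, si-NC replicate 2 or si-SNHG17 replicate 3, SNORD10 without si-NC replicate 1, si-NC replicate 2, si-SNHG17 replicate 1 or si-SNHG17 replicate 3, and SNORD89 without si-NC replicate 2, si-NC replicate 3, si-SNHG17 replicate 1 or si-SNHG17 replicate 3. SNORD89 was also not called in DESeq2, with no low-count filter or with the replicate block. The highest adjusted p over all alternatives was 0.0627 for SNORD68, 0.129 for SNORD10 and 0.147 for SNORD89.

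U3 is the box C/D RNA that base-pairs with the ribosomal RNA precursor in the small-subunit processome, and its gene is present in several near-identical copies. The 5 U3 rows are 217 bases long and 98.2% to 100% identical over those bases, so their split into rows is uncertain. SNORD3D, which lies in an exon of a long noncoding transcript, had 11, 15 and 14 reads with si-SNHG17 and 5, 1 and 0 with si-NC. Its log2 fold change was 2.60 (standard error 0.663, adjusted p = 0.00669), with no overlap, and it reached the filter in 3 knockdown libraries and 0 control libraries. SNORD3B-1 and SNORD3B-2, which share all 217 bases, had 9, 49 and 25 and 45, 7 and 80 reads in the knockdown libraries. In the control libraries the same pair had 0, 2 and 1 and 0, 0 and 6 reads. Library by library the pair shared its reads unevenly, yet its sum was 54, 56 and 105 against 0, 2 and 7. SNORD3C had 0, 9 and 9 reads against 1, 1 and 1. The 4 U3 members together had 273 reads with si-SNHG17 and 18 with si-NC, 9.25 ± 4.62 against 0.609 ± 0.189 CPM, a ratio of 15.2. The row left out by the rule, SNORD3A, had 156, 152 and 268 reads against 16, 31 and 22.

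Other small structured RNAs moved the same way as U3 in these libraries. RPPH1, the RNA of RNase P, had 27, 40 and 36 reads against 4, 3 and 3, and the rows of gene type snRNA without RN7SK summed to 65, 100 and 116 against 17, 14 and 11. The labels do not give how short RNA was kept in each library, and its part in the U3 values was not tested. The remaining SNORD members, without U3, SNORD141A and SNORD141B, did not show a ratio of that size: their 67 rows summed to 117 ± 7.34 against 104 ± 2.51 CPM, a ratio of 1.12, with no overlap. Most of that difference lay in SNORD139, which rose from 2.44 to 10.6 CPM, so the lack of overlap does not describe the 67 rows as a whole.

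Among box H/ACA rows, SNORA103 in GAS5 was the deepest call. GAS5 is a noncoding RNA known for accumulating when growth or translation slows, and its introns hold a series of snoRNAs. SNORA103 had 425, 657 and 419 reads with si-SNHG17 and 269, 200 and 331 with si-NC. It rose from 27.1 ± 6.4 to 48.2 ± 4.1 CPM, a log2 fold change of 0.83 (standard error 0.149, adjusted p = 0.000552), with no overlap. GAS5 rose by 0.93 (adjusted p = 1.48e-06). The other 8 members in GAS5, all box C/D, summed to 94, 102 and 84 reads against 75, 99 and 98, and to 9.17 ± 0.895 against 9.16 ± 0.613 CPM. Of these, SNORD44 was higher in every knockdown library (9, 10 and 9 reads against 5, 4 and 4) and SNORD80 lower in every one (13, 23 and 18 against 19, 26 and 28), and neither passed a test, SNORD44 being under the filter and SNORD80 having an adjusted p of 0.208.

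SNORA57 had 44, 55 and 59 reads with si-SNHG17 and 24, 22 and 32 with si-NC. It rose from 2.63 ± 0.422 to 5.24 ± 1.29 CPM, a log2 fold change of 0.97 (standard error 0.255, adjusted p = 0.00792), with no overlap. Its host METTL12 was under the filter, with 3, 9 and 4 reads against 6, 9 and 4. SNORA50C, in an exon of SNHG25, had 3, 9 and 3 reads against 9, 11 and 14, with no overlap, and fell by 1.23 (standard error 0.454, adjusted p = 0.0445). It reached the filter in 0 knockdown libraries, lost its call in DESeq2, in the fit with no low-count filter, with the replicate block and without si-NC replicate 1, si-SNHG17 replicate 1 or si-SNHG17 replicate 3, and had adjusted p from 0.03 to 0.148 over its alternatives. SNHG25 had a log2 fold change of -0.29 (adjusted p = 0.347). SNORA73B, a copy of the U17 RNA that acts in small-subunit RNA processing, stood just outside the threshold, with 11, 16 and 19 reads against 7, 7 and 7, a log2 fold change of 1.07 and an adjusted p of 0.05.

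The most read box H/ACA rows after SNORA103 and SNORA104 changed little or did not pass. SNORA86 had 199, 220 and 215 reads against 203, 208 and 225, with a log2 fold change of -0.05 (adjusted p = 0.806). SNORA105B had 91, 151 and 95 against 123, 121 and 178, with a log2 fold change of -0.39 (adjusted p = 0.0729). SNORA70, in the ribosomal protein gene RPL10, had 85, 71 and 66 reads against 70, 73 and 77. SNORA67, in EIF4A1, had 55, 55 and 42 against 44, 27 and 46, and in all 4 of these rows the groups overlapped. The same held for the most read box C/D rows after SNORD141A and SNORD141B other than those called. SNORD49B, in an exon of LRRC75A-AS1, had 144, 152 and 147 reads against 109, 103 and 116, a log2 fold change of 0.39 with an adjusted p of 0.0692. SNORD58B, in an exon of the RPL17-C18orf32 readthrough gene, had 94, 123 and 122 against 104, 154 and 155, with a log2 fold change of -0.32 (adjusted p = 0.156).

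Some box C/D rows were higher in each knockdown library without passing the test. SNORD36A in RPL7A had 41, 56 and 38 reads against 33, 28 and 28, a log2 fold change of 0.53 (adjusted p = 0.0908). SNORD16 in RPL4 had 11, 21 and 14 reads against 10, 9 and 5, with 0.85 (adjusted p = 0.113). Both lie in genes of ribosomal proteins, and the 3 members in RPL4 together had 3.74 ± 0.501 against 2.30 ± 0.116 CPM, while RPL4 itself had a log2 fold change of 0.09 (adjusted p = 0.416). At an unadjusted p under 0.05, 18 of the 52 tested members passed in all. Over all genes tested at least 39.1% did, the share that passed at the adjusted p, so the count of members is not above the background.

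Outside U3, most rows for snoRNAs that act in cutting the ribosomal RNA precursor were too shallow to test. SNORD118 (U8), needed for large-subunit RNA, was tested and had 9, 17 and 16 reads with si-SNHG17 and 9, 11 and 13 with si-NC, a log2 fold change of 0.29 (adjusted p = 0.57) with overlapping groups. The U14 rows in RPS13, SNORD14A and SNORD14B, were under the filter with 11, 11 and 6 reads against 2, 0 and 7 and with 8, 7 and 3 against 2, 1 and 2. Both were higher in CPM in every knockdown library. SNORD14D, the U14 row in HSPA8, had 5, 4 and 4 reads against 3, 2 and 3, and its groups overlapped. SNORA73A, the U17 copy beside SNORA73B in RCC1, had 11, 8 and 19 reads against 7, 8 and 9, also with overlap, and was under the filter.

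A few deeper rows leaned lower without a call. SNORD140, which lies outside other genes, had 18, 64 and 19 reads with si-SNHG17 and 42, 45 and 62 with si-NC, a log2 fold change of -0.66 (adjusted p = 0.121), and si-SNHG17 replicate 2 stood within the range of the control libraries. SNORD17, the longest member at 237 bases, lies in an intron of SNX5 and had 22, 13 and 12 reads against 28, 29 and 18, with -0.73 (adjusted p = 0.134). SNX5 fell by 0.27 (adjusted p = 0.0138). SNORA10, in an exon of RPS2, had 17, 20 and 29 reads against 29, 26 and 38, with -0.53 (adjusted p = 0.21), and its neighbour SNORA64 had 19, 27 and 12 against 11, 16 and 19, with 0.26 (adjusted p = 0.556). In all 4 of these rows the groups overlapped.

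The 62 members under the filter can be described only by their reads. In 13 of them every si-SNHG17 library was higher in CPM than every si-NC library, in 2 every one was lower, and in 47 the groups overlapped. Over all 114 members the groups did not overlap in 33, 26 higher and 7 lower, where 22.5% of the 18765 rows with at least 20 reads were higher without overlap and 22.3% lower. Examples of the higher kind were SNORD116-4, of the imprinted cluster linked to Prader-Willi syndrome, with 12, 9 and 14 reads against 6, 6 and 5, and SNORA80E in KIAA0907, with 7, 9 and 18 against 4, 0 and 3. SNORA31 in TPT1 had 9, 14 and 16 against 8, 9 and 4. The 2 lower ones were SNORD52 in C6orf48, with 2, 3 and 1 reads against 7, 9 and 5, and SNORA105A, with 5, 6 and 4 against 15, 12 and 6. SNORA105A was placed by position, on either strand, in CDH12, which had 0 reads in every library. These 5 rows were picked after their values were seen.

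Fold changes of the snoRNA rows and of the genes they lie in showed little relation across the list. Of 108 members with a host in the table, in 58 hosts, 48 tested members had a tested host. Over these 48 the Pearson correlation of the log2 fold changes was -0.07 and Spearman's -0.1, as a description over rows that share 31 hosts and the same libraries. Of these 31 hosts, 10 were higher, 3 lower and 18 did not pass, beside 39.1% called over all genes tested. Host rows differed widely in level, with RPL3 at 18.5 and 21.9 CPM and NOP56 at 9.99 and 8.25, beside RPL4 at 1233 and 1158. A host row may therefore not stand for all messenger RNA of its gene. For the 7 higher members with a tested host, the host was higher in 4 and did not pass in 3. For the 3 lower members, the host was higher in 1 and did not pass in 2. TAF1D, whose introns hold 5 members, rose by 1.16 (adjusted p = 2e-06), while its members summed to 52, 51 and 51 reads against 58, 53 and 69, with overlap. SNHG12 rose by 1.10 (adjusted p = 0.00529) and its 3 members had 28, 25 and 30 reads against 24, 25 and 30. SNHG7 rose by 1.05 (adjusted p = 2.68e-06), and SNORA17A in it had 14, 19 and 9 reads against 10, 9 and 21.

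**Figure D3:**
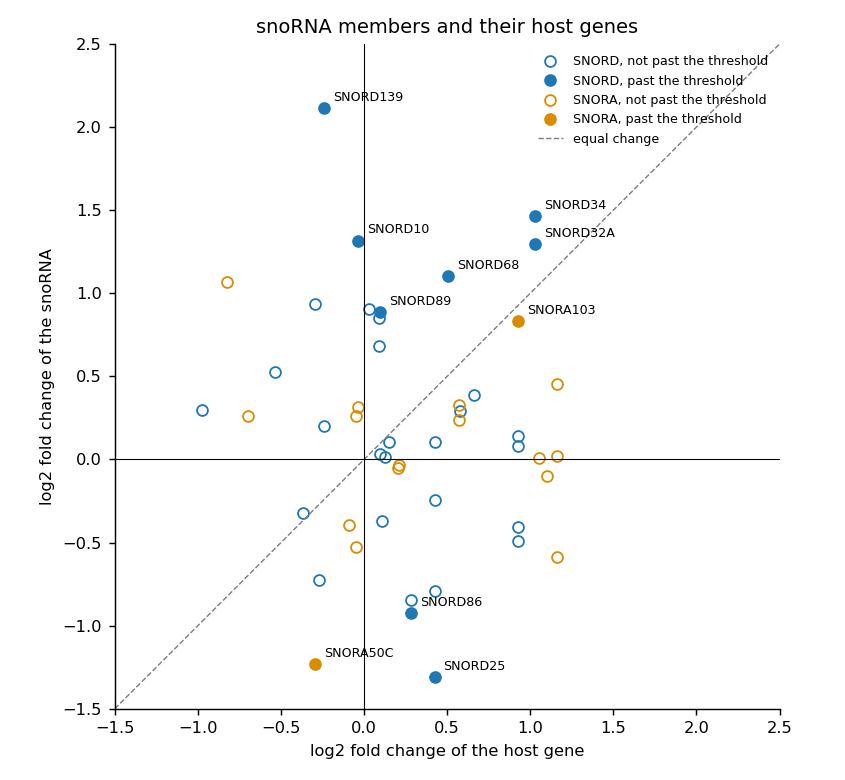
Log2 fold change of 48 tested snoRNA members against that of the gene each lies in (si-SNHG17 against si-NC). Filled points are members past the threshold, blue SNORD and orange SNORA, and the dashed line is equal change. SNORD139 lies far above the line at 2.11 with its host row (18.5 against 21.9 CPM) at -0.24. SNORD25 lies below it at -1.31 with its host at 0.42.

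The plot of members against hosts shows the called SNORA103, SNORD32A, SNORD34, SNORD68 and SNORD89 in the field where both are positive, and columns of GAS5 and TAF1D members, SNORA103 aside, between -0.58 and 0.45 at host values of 0.93 and 1.16. RPL13A held 2 of these 5 points. SNHG17 is itself a host, of SNORA71A to SNORA71D, and none of these met the depth rule. SNORA71A had 1, 0 and 3 reads with si-SNHG17 and 1, 0 and 2 with si-NC, and SNORA71B 0, 4 and 4 against 0, 0 and 0. SNORA71C had 0, 2 and 1 against 0, 2 and 0, and SNORA71D 0, 2 and 0 against 0, 0 and 0. With 17 reads in the knockdown libraries and 5 in the control libraries over these 4 rows, whether they followed SNHG17 was not detectable at this depth.

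Summed over the class, SNORD members had 402, 348 and 424 CPM with si-SNHG17 and 361, 398 and 340 with si-NC. The means were 391 ± 38.7 and 366 ± 28.9 CPM, a ratio of 1.07, and the groups overlapped. SNORA members had 164, 165 and 184 CPM with si-SNHG17 and 152, 125 and 148 with si-NC, a ratio of 1.21 with no overlap. Most of that difference lay in SNORA103, which rose from 27.1 ± 6.4 to 48.2 ± 4.1 CPM. The ratio and the lack of overlap therefore do not describe the SNORA class as a whole. Without SNORD141A and SNORD141B all members together had 297 ± 22.8 against 246 ± 16.2 CPM, a ratio of 1.21, also with no overlap. That sum too includes SNORA103, SNORD139 and the U3 members. The 165 snoRNA rows of 1 to 19 reads gave 20.8 ± 1.97 against 17.0 ± 0.578 CPM.

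**Figure D4:**
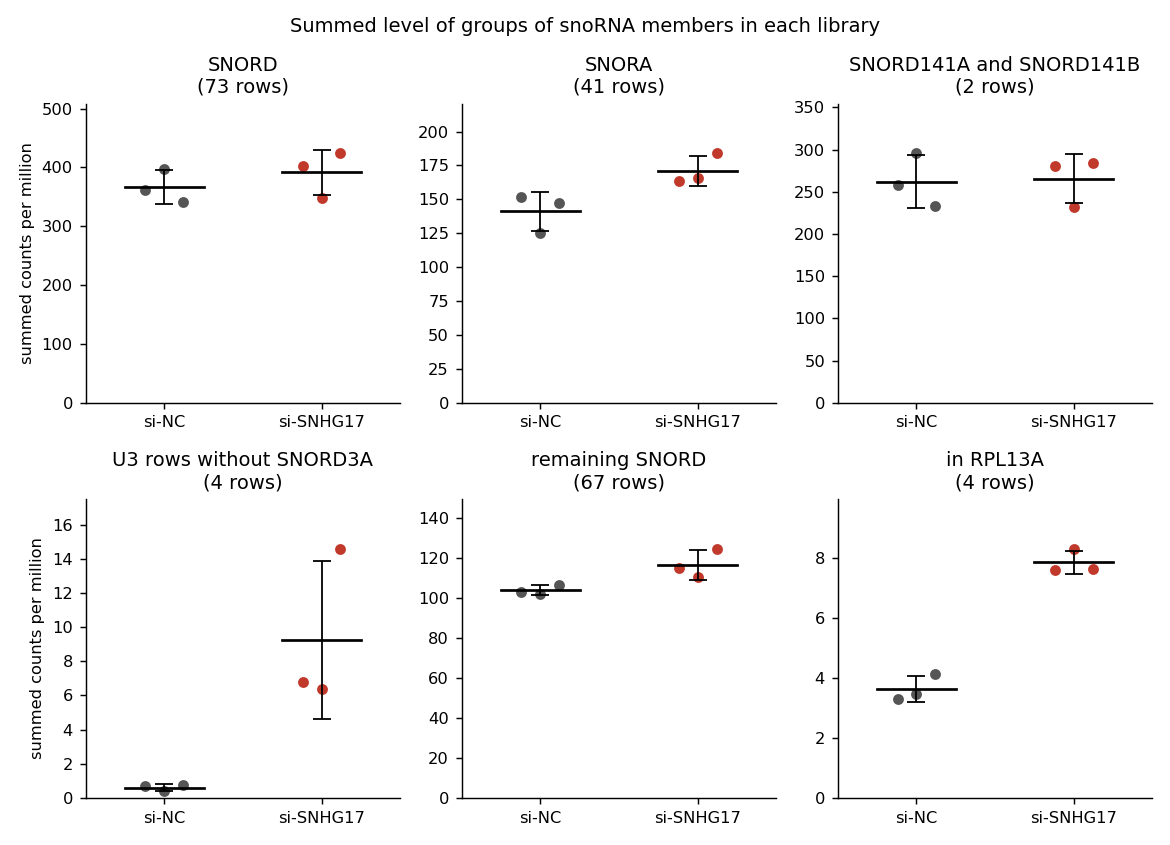
Summed CPM of groups of snoRNA members in each library, with points for the 3 libraries of each group, the mean as a wide line and 1 SD as bars. SNORD141A and SNORD141B and the whole SNORD class overlap between groups, whereas the U3 rows (9.25 against 0.609 CPM) and the rows in RPL13A (7.85 against 3.62 CPM) do not. The U3 rows met the depth rule mainly through the si-SNHG17 libraries.

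The summed plot shows how far the SNORD total follows SNORD141A and SNORD141B, which together gave 266 ± 29.3 against 262 ± 31.3 CPM. Members in introns only summed to 57.9 ± 4.59 against 47.8 ± 3.48 CPM, and members in exons of minor isoforms only to 151 ± 5.22 against 114 ± 11.3 CPM. SNORA104, placed without a strand, held 2265 of the 3177 reads in introns only. Most of the minor-isoform difference lay in SNORA103 (27.1 to 48.2 CPM) and SNORD139 (2.44 to 10.6 CPM). Members in exons of protein-coding or long noncoding transcripts summed to 76.6 ± 9.93 against 78.5 ± 3.66 CPM. Among the tested members of these contexts, the median log2 fold change was 0.59 for 6 in introns only, 0.22 for 32 in minor isoforms only and -0.05 for 11 in exons of protein-coding or long noncoding transcripts.

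The proteins that bind, assemble and trim snoRNAs were read from 6 lists of 61 genes in the table, 58 of them tested. Of these, 11 were higher, 5 lower and 42 did not pass, with a median log2 fold change of 0.12. Over all genes tested 39.1% passed, 19.6% higher and 19.6% lower, so the higher count was near the background. Without si-NC replicate 2 there were 5 higher and 3 lower, without si-SNHG17 replicate 1 there were 2 lower, without si-SNHG17 replicate 2 there were 7 higher and 3 lower, and without si-SNHG17 replicate 3 there were 6 higher. None of the 4 box C/D core proteins passed in edgeR: fibrillarin (FBL) had a log2 fold change of 0.08, NOP56 0.28, NOP58 -0.38 and SNU13 -0.13. Of the 4 H/ACA core proteins, NHP2 fell by 0.36 (adjusted p = 0.00554), while DKC1 (0.03), NOP10 (0.07) and GAR1 (0.22) did not pass. Among assembly factors, the chaperone HSP90AA1 fell by 0.77 (adjusted p = 5.97e-06) and its paralog HSP90AB1 rose by 0.28 (adjusted p = 0.00505). The box C/D assembly factor NUFIP1 rose by 0.54 (adjusted p = 0.0212), and C12orf45 (NOPCHAP1), a chaperone of NOP58, by 0.60 (adjusted p = 0.00149).

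Of 10 genes of Cajal bodies and nucleolar trafficking, coilin (COIL) rose by 0.56 (adjusted p = 0.000782) and NOLC1, a nucleolar phosphoprotein that binds snoRNPs, fell by 0.21 (adjusted p = 0.0464). WRAP53 had -0.20 and USPL1 0.25, and neither passed. In the list of 3′ end processing and intron release, 4 were higher and 1 lower of 17 tested, beside 19.6% in each direction over all genes. The lower one was PARN, the nuclease that trims H/ACA ends, at -0.40 (adjusted p = 0.01). INTS1, of the Integrator complex that ends small nuclear RNA transcripts, rose by 0.44 (adjusted p = 0.00087). Of the partners of the nuclear exosome, ZCCHC8 rose by 0.38 (adjusted p = 0.00695) and RBM7 by 0.38 (adjusted p = 0.042). In the small-subunit processome list 3 of 12 were higher, near the 19.6% over all genes, and 0 lower in edgeR. They were IMP3 at 0.31 (adjusted p = 0.0137), NOP14 at 0.34 (adjusted p = 0.0144) and MPHOSPH10 at 0.46 (adjusted p = 0.0145). UTP4, at 0.15, did not pass. IMP3 and MPHOSPH10 belong with IMP4 to one complex within the U3 particle, and IMP4 had a log2 fold change of 0.07 that did not pass (adjusted p = 0.601).

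Over the whole table, libraries held 8643076 to 12477214 counts, with scaling factors from 0.975 to 1.02, and 3 reads corresponded to 0.24 to 0.347 CPM. Mitochondrially encoded messenger RNAs took 3.22% ± 0.137 of counts with si-SNHG17 and 6.17% ± 0.418 with si-NC. Of the A549 and airway epithelial markers, 8 of 10 were tested, 6 were lower and 1 higher (19.6% in each direction over all genes tested), and their summed level was 8312 to 8567 CPM against 17670 to 18460 CPM. Of the immune markers, PTPRC, CD3E and MS4A1 had no read, and the list summed to 489.9 to 588.7 CPM against 206.4 to 289.7 CPM, most of it CD68. Of 8 stromal and endothelial markers, COL1A2 and COL3A1 had no read. Whether these shifts have a part in the snoRNA values was not tested.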

How the data were processed

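The authors deposited raw read counts per gene for 6 libraries, and per the submitters' processing notes the genome build was GRCh38. Not given in the sources used here are the aligner, the counter with its annotation and strand setting, and what became of reads that fit several places. Members, gene lists and named rows were chosen with earlier results of these data known. The named rows were the 6 most read members of each class, every member past the threshold, their hosts, the rows beside the depth cutoff, the core proteins and up to 4 genes of each other list with the smallest p. Further rows named share a host or a family with these or were picked after their values were seen.

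The whole table was fitted with edgeR 4.0.16 (filterByExpr, TMM scaling, quasi-likelihood test, R 4.3.3), without a replicate term, and p-values were adjusted by Benjamini-Hochberg over 15614 genes. A call is an adjusted p under 0.05. DESeq2 1.42.0 and limma 3.58.1 served as alternatives. The script was tested on simulated data. CPM are counts per 1000000 of the TMM-scaled library. Positions came from RefSeq GRCh38.p14 for 114 members, and contexts and sequences from GENCODE release 29, which names 94. The other 20 have no strand here, and hosts on either strand were allowed. A row counts as exonic with at least 50% of its bases in an exon. The host is the gene with most reads that spans the row. Library pairs of one group differed beyond sampling noise (chi-square per degree of freedom 2.25 to 8.85).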

Additional observations from a re-analysis of the deposited data

How the results depend on the processing

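Of the 12 calls, 6 (SNORA57, SNORA103, SNORD3D, SNORD86, SNORD139 and SNORD32A) held in every alternative that could test them. Same-numbered libraries were not treated as paired in the main fit. The labels do not say whether they were. Their correlations of deviations (0.061, -0.11 and -0.091), with 3 libraries in each group, cannot decide it. With the replicate block, 10 of the 12 were called (not SNORD89 and SNORA50C), 8 higher and 2 lower, with 0 SNORA lower and 3 snoRNP genes lower. The number of members lower (3) was 1 in DESeq2. SNORD lower (2) was 1 and SNORA lower (1) was 0 in DESeq2. SNORA lower was also 0 with a mean CPM of at least 1, with no low-count filter and with a minimum of 50 reads. With no low-count filter the medians were 0.34 for all members, 0.36 for SNORD and 0.33 for SNORA, and 3 snoRNP genes were lower, as with library totals only. The next 2 alternatives were chosen after seeing the data. Without members in exons of protein-coding, long noncoding or pseudogene transcripts, 1 member, 1 SNORD and 0 SNORA were lower, the median was 0.24 and the SNORD sum ratio 1.27. Without the U3 members no count moved by over 1.5 times. Fits without a library applied the low-count filter anew, so the rows tested could differ. Leaving out single libraries gave 6 to 11 members higher and 1 to 4 lower, 4 to 9 SNORD higher and 1 to 3 lower, 2 SNORA higher and 0 to 1 lower, medians of 0.15 to 0.38 (all), 0.18 to 0.43 (SNORD) and 0.0886 to 0.383 (SNORA), and 5 to 12 snoRNP genes higher and 2 to 6 lower. Fold changes near 0 whose sign turned when single libraries were left out, none of them called, ranged from -0.0403 to 0.104 for SNORD141A, -0.296 to 0.249 for SNORD141B, -0.168 to 0.0718 for SNORA86, -0.186 to 0.142 for SNORA70, -0.00455 to 0.166 for EEF1A1P13, -0.169 to 0.0491 for HSPD1, -0.0753 to 0.0201 for EIF4A1 and -0.146 to 0.283 for RNF149. SNORA70 was at 0.00685 with library totals only. The cause was not tested. Depth limits most members: 62 of 114 did not pass the low-count filter.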
